A study of Mus musculus with 3 samples.

Results

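The distal part of the largest olfactory receptor cluster of the mouse lies on chromosome 2, and the promoters named there by the authors are the subject here. Members were the rows of the authors' promoter table with a position from 87 to 90.3 Mb on chromosome 2 (build mm9) and a name that occurs in 1 row only. Unannotated pseudogenes, Olfr73 and Olfr50 were left out. This gave 121 members, each with 1 position and a strand, out of 1085 named positions in the series and 136 rows in the interval. The rule used names and positions and no score, though it was set with earlier results of these data known. The first member was Olfr1112 at 87028060 on the plus strand and the last was Olfr1274 at 90238151, also on the plus strand. The nearest named positions outside were those of Olfr1111 at 86995850 and Olfr1275 at 111075240.

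RNA of the olfactory epithelium, the sensory tissue of the nose, was taken from adult C57/Bl6 mice aged 6 to 8 weeks, with 5 mice pooled per sample. RLM-RACE joins an RNA adapter to mRNA whose cap has been removed and so marks capped 5′ ends, and degenerate primers for receptor coding sequence started the cDNA. The Stringent group, with 1 array, carried products of nested PCR, and the High Coverage group, with 2 arrays called HC1 and HC2, carried products of PCR without nesting. All groups share strain, age, tissue and the degenerate primers that started the cDNA. No control array was used in the scoring. The file headers name the input of HC1 as female and that of HC2 as male, so array and sex cannot be told apart, and Stringent was read with another probe map than High Coverage.

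Odorant receptors are G protein-coupled receptors of the olfactory sensory neurons, and a mature neuron expresses a single receptor gene from 1 allele. The genes lie in tandem clusters that grew by duplication, and all receptors of this cluster belong to class II, the larger class in mammals. A typical receptor gene has its coding sequence in 1 exon, with one or more short noncoding exons upstream. A capped 5′ end can therefore lie kilobases from the coding start, and a spliced product gives signal both at the promoter and at the exons behind it. Fewer neurons that express a receptor and less RNA per neuron cannot be told apart in such pooled tissue.

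Sequence is shown for the 3 members whose RefSeq gene starts kept the distances between their deposited positions. No start was placed on a deposited position, so letters and scores cannot be lined up base by base. RefSeq promoters, which run from 250 bases before to 50 after a gene's start, were found by symbol for 106 members. RefSeq gives 105 of the members a gene shorter than 1200 bp, about the size of a coding exon, so its start need not be the capped end. Among 12 members with a promoter and a gene over 1500 bp, the distances between gene starts within GRCm38.p6 were set beside those between the deposited positions within mm9. Olfr1134, Olfr1157 and Olfr1213 kept all distances between them to within 44 to 108 bp, and no coordinate was carried between builds. All 3 lie on the minus strand, and capitals mark the motif matches described after the sequences. Olfr1134 and Olfr1157 are shown for these distances and were picked after their values were seen.
Olfr1134, RefSeq GRCm38.p6, chr2:87658408-87658707: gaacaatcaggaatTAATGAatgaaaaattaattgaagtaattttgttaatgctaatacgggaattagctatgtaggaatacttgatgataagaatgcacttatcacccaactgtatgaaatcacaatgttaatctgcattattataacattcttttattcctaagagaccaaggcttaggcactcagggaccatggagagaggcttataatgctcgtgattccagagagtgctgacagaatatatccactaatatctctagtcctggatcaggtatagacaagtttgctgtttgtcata
Olfr1157, RefSeq GRCm38.p6, chr2:87968208-87968507: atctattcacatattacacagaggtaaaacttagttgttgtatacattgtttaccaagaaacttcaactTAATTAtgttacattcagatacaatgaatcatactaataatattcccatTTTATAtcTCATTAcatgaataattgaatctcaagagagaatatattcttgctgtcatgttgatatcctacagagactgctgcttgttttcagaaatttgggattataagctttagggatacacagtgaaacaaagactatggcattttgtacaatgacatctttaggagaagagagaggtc
Olfr1213, RefSeq GRCm38.p6, chr2:88980218-88980517: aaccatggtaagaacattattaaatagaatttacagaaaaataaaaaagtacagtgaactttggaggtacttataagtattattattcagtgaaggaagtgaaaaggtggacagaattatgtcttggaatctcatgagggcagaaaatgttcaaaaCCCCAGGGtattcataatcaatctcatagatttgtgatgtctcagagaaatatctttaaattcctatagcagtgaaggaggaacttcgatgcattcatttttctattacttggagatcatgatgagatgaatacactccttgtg

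The 3 windows were rich in A and T, from 65.0% in Olfr1134 to 69.0% in Olfr1157, against a median of 47.3% over the 32851 RefSeq promoters of the table. They held 2, 0 and 1 CG dinucleotides, against a median of 7. Searched on both strands were CCCNNGGG, the core of the sites of Olf/Ebf factors, the homeodomain type letters TAATTA and TAATGA, and the TATA box letters TATAAA. A longer form of the Olf/Ebf core, with 1 more base on each side, was searched too, was in none of the 3 windows and was in 0.904% of all promoters. Olfr1213 held CCCNNGGG once, beginning 94 bases before the start, as did 13.7% of all promoters. Olfr1157 held TAATTA beginning 181 bases before the start (5.29% of all promoters), TATAAA at 132 bases (13.6%) and TAATGA at 124 bases (9.78%). Olfr1134 held TAATGA at 236 bases. A match is a run of letters and not a shown binding site.

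The measure was the MAT score, a natural-log-scale score that sets each probe against what its sequence predicts and averages over a window of probes. It is relative to the probes of its own array and has no scaling between arrays. For each member the highest score within 100 bp of the position was taken, and its percentile was taken among the 2188086 probes scored on the array. The windows held 11 to 41 probes with a median of 36, and all 121 members were scored. The authors' regions were called per array above MAT scores of 2.52 on Stringent, 2.53 on HC1 and 2.99 on HC2. These limits lay at the 93.3, 95.5 and 94.8 percentiles of the scored probes, so calls were not made at a like cutoff. With 1 Stringent array, differences between the groups have no replicate check on that side, and no test between them was made. The number of arrays limits the precision. Intervals for shares are exact Clopper-Pearson intervals at 95% and cover counting error over promoters only.

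On Stringent, most members carried signal at the named position. Of 121 members, 79 had a region within 100 bp, or 65.3% (56.1 to 73.7), against a background of 61.7% of all 1085 named positions. On HC1 it was 41 members, or 33.9% (25.5 to 43.0), with a background of 36.4%. On HC2 it was 52 members, or 43.0% (34.0 to 52.3), with a background of 43.6%. Each share of the members was within a few points of its background, so the count on no array sets these promoters apart from the other named receptors. The proximal part of the same cluster, from 85 to 87 Mb, had 80 positions by the same rule on names. A region lay at 50 of them on Stringent, at 24 on HC1 and at 37 on HC2. No test of these differences was made. With the position itself required to lie in the region, the share was 62.8% on Stringent (background 58.0%), 21.5% on HC1 (background 25.2%) and 24.8% on HC2 (background 29.0%).

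The highest score at a member ranged from -0.656 to 21.5 on Stringent, with a median of 3.56 and quartiles of 1.68 and 12.1. On HC1 it ranged from -0.962 to 19.5 with a median of 1.52, and on HC2 from -1.27 to 28.7 with a median of 2.08. The median percentile was 94.0 on Stringent, 91.8 on HC1 and 92.5 on HC2, and over all 1079 scored positions it was 94.4, 91.3 and 92.4. The highest of many probes is ranked among single probes here, which lifts the percentile of any window. By the mean score of the window, the members' median percentile was 92.0 on Stringent, 70.3 on HC1 and 73.5 on HC2.

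**Figure D1:**
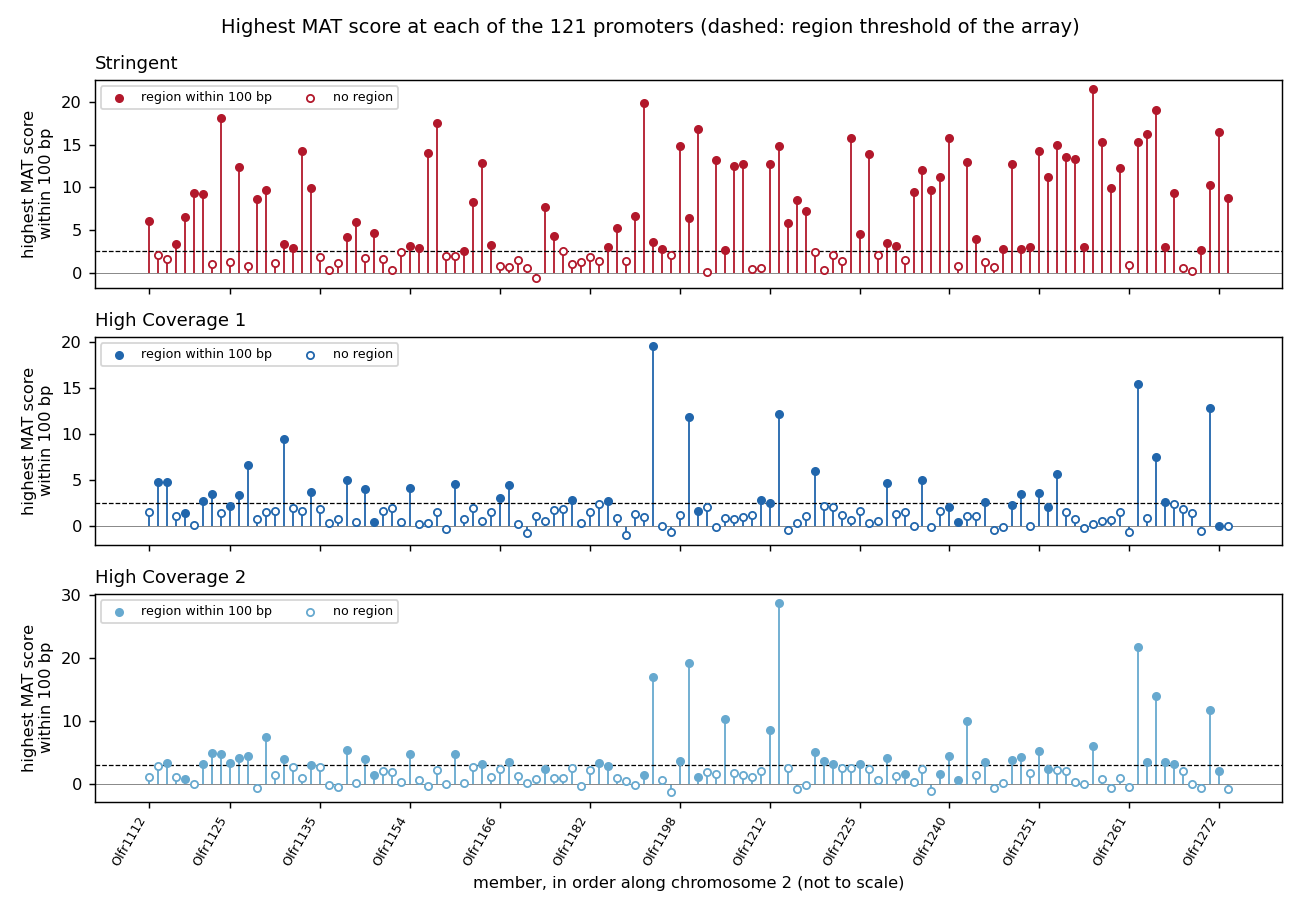
Highest MAT score within 100 bp of each of the 121 promoters (y axis), in order along chromosome 2 (x axis), on Stringent, HC1 and HC2; filled points have a called region within 100 bp, and the dashed line is the array's region threshold. Stringent has 79 filled points spread along the whole interval, and the tall points on HC1 and HC2 are few and largely the same genes; a filled point below the line is a window that a region only reaches into.

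The stretch just 5′ of the positions was quiet on Stringent, and the median score rose at the position. On Stringent the median score of the members was -0.76 at 100 to 50 bp before the position and -0.17 at 50 to 0 bp before it. It was 2.29 over the 50 bp that follow the position and 3.16 over the 50 bp after those. It was 1.54 and 0.69 in the following bins, while the upper quartile stayed at 8.80 up to 200 bp downstream. On HC1 the highest bin median was 0.28, and on HC2 it was 0.43. With 150 bp taken on each side, the downstream mean was the higher one in 110 of 117 members with probes on both sides on Stringent, or 94.0% (88.1 to 97.6), with a background of 94.5%. It did so in 78 members, or 66.7%, on HC1 (background 70.3%) and in 83 members, or 70.9%, on HC2 (background 74.6%). The sources used here do not say how the authors set the positions, and whether these arrays were used for it was not tested.

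**Figure D2:**
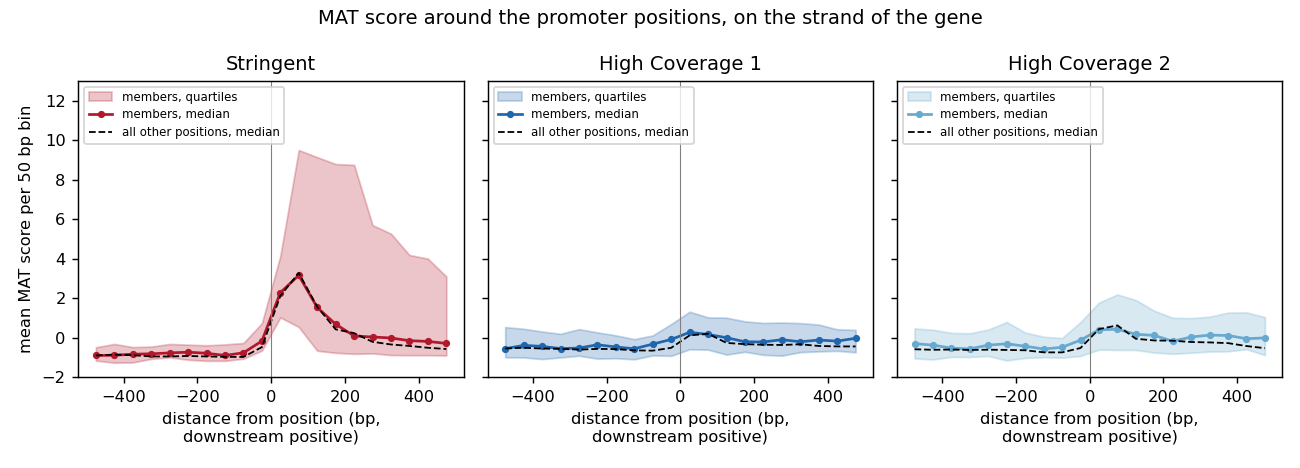
Mean MAT score in 50 bp bins (y axis) against distance from the position on the strand of the gene (x axis, bp), for Stringent, HC1 and HC2; the coloured line is the median of the members, the band their quartiles and the dashed line the median of all other named positions. On Stringent the member median climbs to 3.16 within 100 bp downstream and lies near the line of the other positions.

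Regions at the members were longer on Stringent, and at the median their 5′ edge lay just upstream of the position. The MAT score averages over neighbouring probes (bandwidth 50), so the edges do not place the start of the signal exactly. Regions were called at the 93.3 percentile on Stringent, 95.5 on HC1 and 94.8 on HC2, so lengths are not compared at a like cutoff. The 5′ edge lay at a median of -45 bp on Stringent, with quartiles of -53 and -34 bp, at -38 bp on HC1 and at -27 bp on HC2. Quartiles on both High Coverage arrays were wider, at -69 and 12 bp on HC1 and at -59.2 and 16.8 bp on HC2. The median length was 284 bp (36 to 981) on Stringent, 163 bp on HC1 and 171 bp on HC2. The region spanned the position itself in 76 of the 79 members on Stringent, in 26 of 41 on HC1 and in 30 of 52 on HC2.

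At Olfr1134 the Stringent score averaged -0.74 in the 50 bp before the deposited position and 2.72 in the 50 bp after it, while HC1 stood at 0.41 and HC2 at 0.17 in the bin after it. At Olfr1157 Stringent climbed to 10.3 in that bin, while HC1 was at -1.70 and HC2 at 0.28. At Olfr1213 all 3 arrays were high there, at 11.3 on Stringent, 9.53 on HC1 and 23.7 on HC2. Over the whole 100 bp window Olfr1134 stood at the 96.6 percentile on Stringent and the 97.2 percentile on HC1, and it had a region on all 3 arrays. Its regions began 39 bp before the position on Stringent and 5 bp before it on HC1, but 29 bp after it on HC2.

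A set of 25 members, or 20.7%, carried a region on all 3 arrays, with a background of 17.3%. A further 25, or 20.7%, had one on 2 arrays (background 25.8%) and 47, or 38.8%, on 1 array (background 38.1%). The other 24, or 19.8%, had none (background 18.8%). Stringent alone had a region at 39 members (background 28.3%), and High Coverage alone had one at 18 (background 19.5%). Both High Coverage arrays without Stringent had one at 10 members (background 9.77%). Members with a region on all 3 arrays numbered 12 at the position itself (background 8.39%) and 40 within 500 bp (background 31.1%).

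The 10 members with the highest lowest percentile were Olfr1264, Olfr1262, Olfr1213, Olfr1251, Olfr1271, Olfr1126, Olfr1212, Olfr1199, Olfr1121 and Olfr1269. Olfr1264 at 89865655 on the minus strand scored 19.1 on Stringent, 7.56 on HC1 and 14.1 on HC2. Olfr1262 at 89840242 on the plus strand scored 15.3, 15.4 and 21.8 in the same order. Its lowest percentile over the arrays was 98.6, and that of Olfr1264 was 98.7. Olfr1213 at 88820431 on the minus strand scored 14.9 on Stringent, 12.2 on HC1 and 28.7 on HC2, the highest value of any member on HC2. Olfr1271 at 90111224 stood at the 96.7 percentile on Stringent, 99.5 on HC1 and 99.1 on HC2. Olfr1251 stood at 98.1 on Stringent, 97.1 on HC1 and 97.0 on HC2, and Olfr1126 at 97.4, 96.8 and 96.2. Olfr1269 was the one of the 10 without a region on HC1, where it scored 2.43 just below the threshold.

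Regions ran on past the 100 bp window at the strongest members. The Stringent region at Olfr1264 ran from 59 bp upstream to 747 bp downstream of the position, in mm9 from 89864908 to 89865714. Olfr1257 at 89718505 on the plus strand had the highest Stringent score of any member, 21.5, and its Stringent region ran from 35 bp upstream to 515 bp downstream. Within 400 bp Olfr1257 reached 26.2 on Stringent, at 239 bp downstream, against 2.21 on HC1 and 6.40 on HC2. Olfr1262 reached 20.6 on Stringent, 22.6 on HC1 and 29.3 on HC2, at 136 to 170 bp downstream. Olfr1195, in turn, had the highest HC1 score, 19.5, with 17.0 on HC2 and 3.56 on Stringent, all within 57 bp of the position. Olfr1257 and Olfr1195 were singled out after their values were seen, as were the 6 genes drawn as single profiles.

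**Figure D3:**
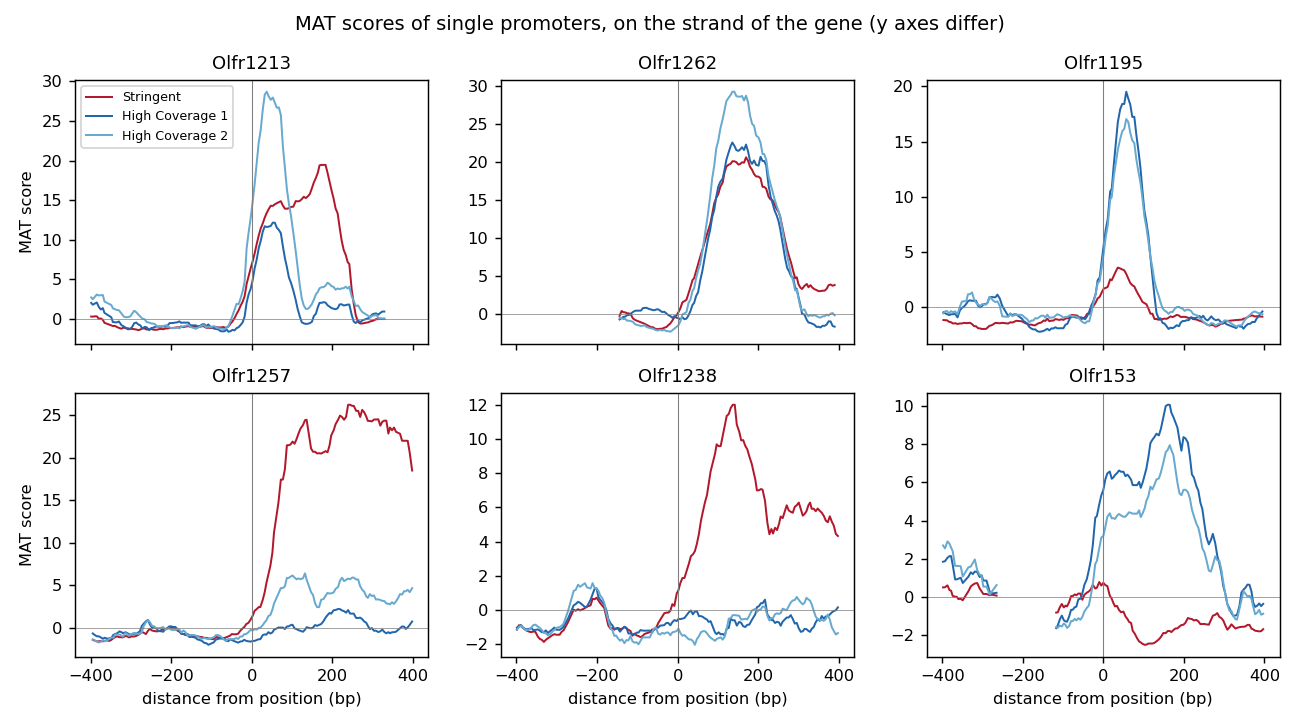
MAT score (y axis, scales differ) against distance from the position on the strand of the gene (x axis, bp) for Olfr1213, Olfr1262, Olfr1195, Olfr1257, Olfr1238 and Olfr153, with 1 line per array and gaps where no probes lie. Olfr1213 and Olfr1262 are high on all 3 arrays, Olfr1257 and Olfr1238 are high on Stringent, and Olfr1195 and Olfr153 are high on HC1 and HC2.

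The nested product was then compared with the non-nested one at each member. A member counted as higher or lower on Stringent where its percentile differed from the mean of both High Coverage arrays by more than 34.3 points, a limit that 95% of all scored positions stay within when HC1 is set against HC2. By this rule 8 members were higher, with a background of 8.8%, and 0 were lower, with a background of 1.2%. Over all members the median difference was 4.73 points, against 3.87 points over all other named positions. Stringent was above the High Coverage mean in 86 of 121 members and in 697 of all 1079 scored positions. A percentile has little room above a member that is already high on the High Coverage arrays, so this rule finds members that are low there. The count depended on the scale, with 50 members higher when scores were set in MAD units of each array (background 40.7%) and 2 when the window was 500 bp (background 4.53%).

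The members higher on Stringent were Olfr1197, Olfr1238, Olfr142, Olfr1261, Olfr1274, Olfr1246, Olfr1188 and Olfr1215. Olfr1238 at 89249817 stood at the 96.5 percentile on Stringent with a score of 9.70, against the 67.9 percentile on HC1 and the 27.4 percentile on HC2, where its scores were -0.046 and -1.04. Olfr1197 had the largest difference, 60.4 points, with a Stringent score of 2.09 that was below the region threshold, and scores of -0.57 on HC1 and -1.27 on HC2. Olfr142 was at the 93.4 percentile on Stringent and at the 49.3 percentile on each High Coverage array. Olfr1274, the last member, scored 8.77 on Stringent, 0.053 on HC1 and -0.80 on HC2. Olfr1261 and Olfr1246 scored 0.91 and 0.72 on Stringent, below the region threshold, and had no region on any array. Of the 8, 4 carried a Stringent region, namely Olfr1238, Olfr142, Olfr1274 and Olfr1215.

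At the other end, Olfr1173 was the member with the lowest difference, -31.9 points, which did not pass the limit. It scored -0.66 on Stringent, the lowest of all members there, 1.13 on HC1 and 0.88 on HC2, and had no region on any array. Olfr1201, Olfr1218, Olfr153 and Olfr1167 followed, at -9.47 to -6.84 points. Olfr153 at 87366246 scored 0.79 on Stringent against 6.63 on HC1 and 4.54 on HC2. Its score within 400 bp reached 10.1 on HC1 and 7.95 on HC2, both 160 to 165 bp downstream, and the Stringent score in that stretch was no higher than 0.79. Olfr1167 scored 0.69 on Stringent, 4.52 on HC1 and 3.46 on HC2.

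**Figure D4:**
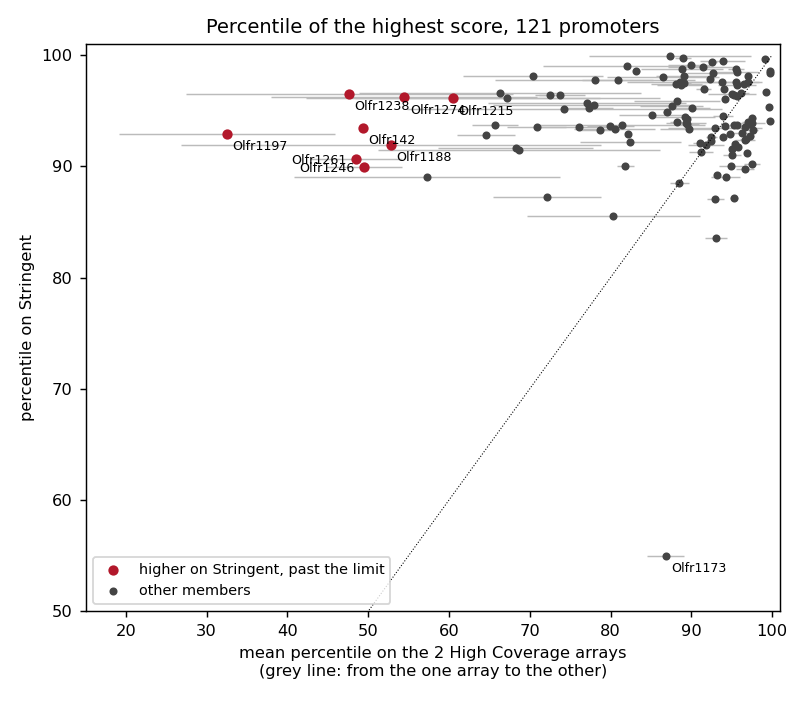
Percentile of the highest score on Stringent (y axis) against the mean percentile on HC1 and HC2 (x axis) for the 121 members; grey lines join the values on HC1 and HC2, and the dotted line marks equal percentiles. The 8 red members stand more than 34.3 points to the left of that line, and Olfr1173 is alone at the bottom with 55.0 on Stringent.

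The scores of the High Coverage arrays were closer to each other than to those of Stringent. Across the 121 members the highest scores had Pearson's r = 0.808 and Spearman's rho = 0.740 between HC1 and HC2. Between Stringent and HC1 they were 0.069 and -0.0060, and between Stringent and HC2 they were 0.251 and 0.192. These values describe positions that share probes and a probe sequence model, and are no test. The median absolute difference between the High Coverage arrays was 2.98 points in the members and 4.40 points in all other named positions. The largest was at Olfr1188, at the 26.8 percentile on HC1 and the 78.8 percentile on HC2. Olfr1238, Olfr1214, Olfr1128 and Olfr1215 came next, with absolute differences of 36.4 to 40.5 points. Of these 5, Olfr1188 and Olfr1214 were lower on HC1 and the other three were higher on it.

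The lowest of the members were Olfr1136, Olfr1173 and Olfr1170, by their highest percentile over the arrays. Olfr1136 scored 0.32 on Stringent, 0.37 on HC1 and -0.11 on HC2. Olfr1170 scored 0.56, -0.67 and 0.20. None of the 3 had a region at the position, yet each had regions on all 3 arrays between 100 bp and 10 kb downstream and short of the next named position. Their highest downstream Stringent region scores were 3.54 for Olfr1136, 8.98 for Olfr1173 and 7.72 for Olfr1170.

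Such downstream regions were common at all named positions. The stretch ended at the next named position on either strand. A region between neighbours that point towards each other could therefore count as downstream of both. On Stringent 116 of 121 members had one (background 88.7%), and 34 had a region in the same stretch upstream (background 29.6%). On HC1 it was 120 downstream (background 96.5%) and 70 upstream (background 54.4%). On HC2 it was 121 downstream (background 93.8%) and 67 upstream (background 51.5%). Every member had a downstream region on HC2, so the 24 with no region at the position had to have one too. On Stringent 22 of these 24 had one, against 116 of all 121 members. The 5 members with no downstream Stringent region were Olfr1151, Olfr1152, Olfr1158, Olfr1199 and Olfr1272, chosen here as the exceptions. The first downstream Stringent region began at a median of 1430 bp (quartiles 495 and 2908). Of the 505 Stringent regions in the interval 76 spanned a member, against 26 of 843 on HC1 and 30 of 857 on HC2. Which of these regions are exons was not analysed here, since no annotation of build mm9 was used.

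The members fall into sequence families, and the counts of members with a region are given by family. RefSeq synonyms hold the MOR names of mouse receptors, whose first number groups receptors of similar protein sequence. By symbol 119 members matched, all given as protein coding, and the 2 without a match were Olfr1125 and Olfr1203. Of the 121 members 111 had 1 MOR family, 3 had several and 7, with the 2 unmatched, had none. There were 18 families, and 9 with at least 5 members held 93 of them. Members of a family share sequence, and 56 of 108 pairs of neighbours were of the same family, so members are not independent. Family counts were read after the data were seen and carry no test. Over all named positions a region within 100 bp lay at 61.7% on Stringent, 36.4% on HC1 and 43.6% on HC2.

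In MOR232 all 8 members had a Stringent region, namely Olfr1202, Olfr1204, Olfr1255, Olfr48, Olfr1257, Olfr1258, Olfr1259 and Olfr1260. None had one on HC1, and Olfr1257 alone had one on HC2. Stringent scores ran from 3.05 at Olfr48 to 21.5 at Olfr1257. HC1 scores ran from -0.186 to 1.55. HC2 scores ran from -0.556 to 6.01, the highest being that of Olfr1257. Scores are not scaled between arrays, and by percentile the lowest Stringent value of the family was 93.7, at Olfr48. Within 500 bp of the position the counts were 8 on Stringent (all named positions 67.6%), 2 on HC1 (55.0%) and 6 on HC2 (58.9%).

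MOR231, with 13 members from Olfr1234 to Olfr1256, all on the minus strand, had a Stringent region at 12, the exception being Olfr1241, where both High Coverage regions reached only into the window and the scores were 0.48 and 0.73. It had one at 6 on each High Coverage array, and its median Stringent score was 11.3. MOR177, with 9 members, was the lowest of the 9 families on Stringent, with a region at 3, Olfr1131, Olfr1132 and Olfr1141, and a median score of 1.83. Each High Coverage array also had a region at 3 of its members. The largest family, MOR233, had 16 members, with 9 on Stringent, 5 on HC1 and 8 on HC2, and it ranged from 0.31 at Olfr1218 to 15.8 at Olfr1222 on Stringent. MOR264, with 13 members all on the plus strand, had 9 on Stringent, 7 on HC1 and 8 on HC2, the highest High Coverage shares of the 9 families. MOR174 had 7, 2 and 3 of its 12 members, in the same order of arrays, and MOR225 had 6, 3 and 3 of 11. Olfr74, a MOR174 receptor known as mOR-EV, which responds to ethyl vanillin, scored 2.00 on Stringent, -0.24 on HC1 and -0.022 on HC2 and had no region on any array. Olfr1157, of the same family, scored 17.6 on Stringent.

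**Figure D5:**
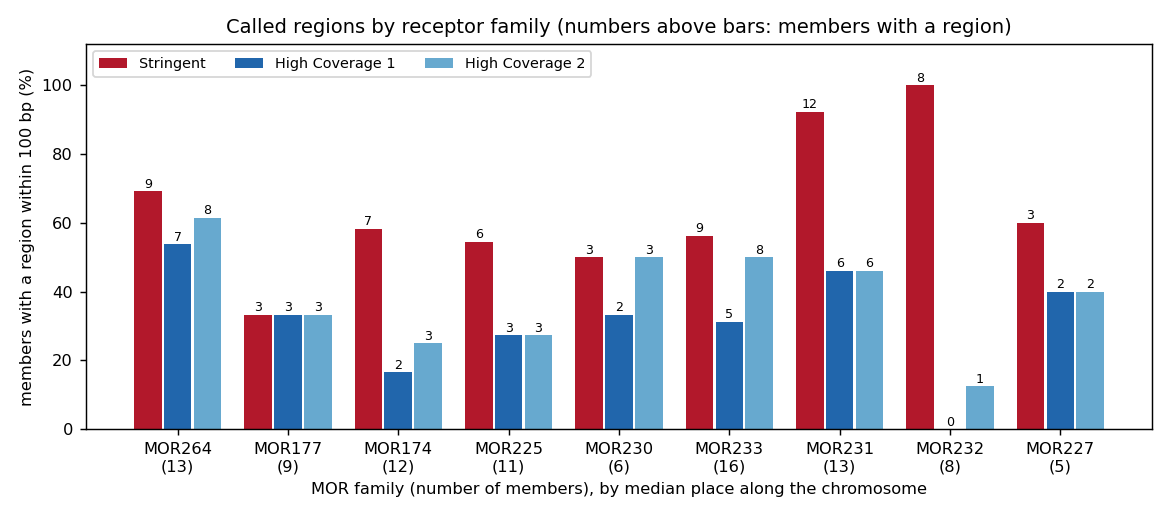
Share of members with a called region within 100 bp (y axis, percent) for the 9 MOR families with at least 5 members (x axis, family size in brackets), with 1 bar each for Stringent, HC1 and HC2 and the number of members above the bar. MOR232 stands at 8 of 8 on Stringent and 0 of 8 on HC1, and MOR177 has 3 of 9 on every array.

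Along the interval the Stringent signal was highest at the distal end, a difference that was not tested. In 3 stretches of equal length, a Stringent region lay at 24 of 43 members from 87 to 88.1 Mb, at 26 of 43 from 88.1 to 89.2 Mb and at 29 of 35 from 89.2 to 90.3 Mb. The median Stringent score was 2.94, 3.49 and 10.3 in that order. The Stringent regions stood at 55.8%, 60.5% and 82.9% of the members of the stretches (background 61.7%). On HC1 a region lay at 39.5%, 23.3% and 40.0% of them (background 36.4%), about level in the first and the distal stretch. On HC2 it was 41.9%, 39.5% and 48.6% (background 43.6%), highest in the distal stretch. The median score there was not the highest, with 1.67, 1.21 and 1.40 along the stretches on HC1 and 2.29, 1.88 and 2.11 on HC2. The stretch from 89.2 Mb holds all 13 MOR231 members and 6 of the 8 MOR232 members, so place and family overlap here. They were not taken apart. Members without a region on any array numbered 10, 10 and 4. The longest unbroken run of members with a Stringent region had 14, from Olfr1247 to Olfr1260. The longest run without one on HC1, with 8 members from Olfr1255 to Olfr1261, overlapped it.

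The strand of the members was uneven, with 46 on plus and 75 on minus, against 475 and 489 for all other named positions. The proximal part of the same cluster was uneven too, with 21 on plus and 59 on minus. The members lay in blocks, the longest being 32 in a row on the minus strand from Olfr1213 to Olfr1254. The longest plus block was 12 members from Olfr1112 to Olfr153. A Stringent region lay at 30 of the 46 plus and 49 of the 75 minus members, an HC1 region at 16 and 25, and an HC2 region at 23 and 29, the widest gap in share between the strands on the 3 arrays. No test between the strands was made. The median Stringent score was 4.93 on plus and 3.29 on minus.

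Of 108 pairs of members that are direct neighbours in the promoter table, 86 were on the same strand, 12 pointed away from each other and 10 pointed towards each other. The median distance was 21213 bp, with a range of 5326 to 89049 bp, and 56 pairs were of the same MOR family. Both neighbours had a Stringent region in 49 pairs, one of them in 40 and neither in 19. On HC1 these counts were 15, 47 and 46, and on HC2 they were 22, 49 and 37. Single members had a region at 65.3% on Stringent, 33.9% on HC1 and 43.0% on HC2. Pairs over all named positions were not counted, and whether the pair counts depart from these shares was not tested. Close neighbours could differ widely. Olfr1132 and Olfr1133, 6544 bp apart on the minus strand, scored 2.94 and 14.3 on Stringent. Olfr1198 and Olfr1199, the closest same-strand pair at 5326 bp, scored 14.8 and 6.40 on Stringent but 1.19 and 11.9 on HC1, so their order was turned round. Olfr1180 and Olfr1181, 6365 bp apart, scored 1.01 and 1.23 on Stringent.

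The closest divergent pair was Olfr1264 and Olfr1265, with starts 8977 bp apart and a region at both on all 3 arrays. Olfr1265 scored 3.01 on Stringent, 2.68 on HC1 and 3.48 on HC2, far below Olfr1264 on each. Olfr1182 and Olfr1183, 9687 bp apart, scored 1.83 and 1.42 on Stringent and had 1 region between them, at Olfr1183 on HC2. Olfr74 and Olfr1158, 12239 bp apart, were level on Stringent at 2.00 and 1.91, and Olfr1158 was the higher on HC1, with 4.60, and on HC2, with 4.82. No divergent neighbours were close enough for their 100 bp windows to overlap.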

How the data were processed

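Each array's file gives a MAT score per probe position, which the authors computed from 1 array with no control array, on a natural log scale per the file headers (bandwidth 50, gaps up to 30, 5 or more probes). The authors' region lists, made for each array on its own with FDR 0 per the file headers, give a region score. Per the submitters' processing notes, positions are in mm9. Probes at exactly 0 on all 3 arrays (5.42% of 2313448) were read as having no score. Region overlap was at least 1 bp with the window of 100 bp on each side of the position. The steps were tested on simulated data. The members and lists were chosen with earlier results of these data known. Named genes were set by rule: the highest lowest percentiles, the extremes of both array differences, the lowest members, the closest neighbours and the ends of the interval. Genes named beside a family, a motif or a highest score fall outside it and were chosen after their values were seen. Protein identity was not analysed here, since no protein sequences were used. RefSeq of build GRCm38.p6 gave names, MOR families and promoters only. The number of arrays limits the precision. Tools were matplotlib 3.10.9, scipy 1.17.1, pandas 2.3.3 and numpy 2.4.6 under Python 3.11.15.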

Additional observations from a re-analysis of the deposited data

How the results depend on the processing

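Of 52 alternative values of the counts, shares and medians, 27 stayed within the interval of the value reported, or within 1.5 times a reported count. These limits serve as a scale only. The intervals cover counting error over promoters, taken as independent, and do not measure a spread due to processing. The share of members with a region moved with the distance allowed. At the position itself it was 21.5% on HC1 and 24.8% on HC2, within 500 bp it was 49.6% and 58.7% (all named positions 55.0% and 58.9%), and in lists cut to the 3608 top regions per array it was 23.1% and 27.3% (24.4% and 33.5%). On Stringent it stayed between 62.8% and 72.7%. Members with a region on all 3 arrays numbered 12 at the position itself and 40 within 500 bp, those on 2 arrays 16 at the position itself (19.4% of all named positions), and those on 1 array 31 within 500 bp (26.4%).

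The median percentile on Stringent, HC1 and HC2 was 92.0, 70.3 and 73.5 with the mean score, 95.6, 95.3 and 95.5 within 500 bp, and 89.5, 88.3 and 87.3 among probes of the interval alone. Within 50 bp it was 88.3 on HC1 and 88.8 on HC2. Members higher on Stringent numbered 50 on a median and MAD scale (40.7% of all named positions), 23 with the mean score (23.5%) and 2 within 500 bp (4.53%). With a High Coverage array left out they numbered 7 to 11, namely 11 without HC1 (9.64%) and 7 without HC2 (11.4%). On the median and MAD scale 1 member, Olfr1195, was lower (1.95%). The cause of these shifts was not tested. The MAD of scores was 0.428 on Stringent, 0.583 on HC1 and 0.656 on HC2, which the MAD scale divides by. The family counts of MOR232, MOR231 and MOR177 were also tried at other distances, chosen after seeing the data; 21 of 27 values stayed within 1.5 times, and at the position itself MOR231 fell to 3 and 2 members on HC1 and HC2. Grouping by protein identity was not run, as no protein sequences were used. No paired analysis was possible because the Stringent group has 1 array, so no more than 1 replicate number could be shared, and no test between the groups was made.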

Other observations

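The 15 rows of the interval that are no members held 6 unannotated pseudogenes, 8 positions of 4 genes with 2 rows each, and Olfr73. A region lay at 4 of the 6 pseudogene positions on Stringent, at 2 on HC1 and at 3 on HC2, and 1 of the 6 had no scored probe. Of the 8 positions of genes with 2 rows, 4 had a region on each array. Both positions of Olfr1506, at 90065309 on the minus strand and 90161668 on the plus strand, had a region on Stringent alone, with scores of 6.10 and 8.52, and stood at -0.83 and -0.027 on HC1. Olfr1138 went the other way, with Stringent scores of 1.14 and 0.99 below the threshold and HC1 scores of 2.84 and 3.09 above it. Olfr1206 had a region at 1 of its positions, at 88702638, on both High Coverage arrays and on Stringent at neither.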
